A study of Carica papaya with 15 samples.

Results

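AGL14 (LOC110817459) and STK (LOC110822337) are 2 MADS-box transcription factor genes among the 20332 genes of a table of pulp expression in papaya (Carica papaya). The pair was chosen by gene identifier after the values of these same libraries had been seen. Levels and fold changes of the pair are therefore a description and carry no test. Tests below concern other genes. Gene symbols come from RefSeq, and symbols of this kind name the closest known plant gene.

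MADS-box proteins bind DNA as dimers and as larger complexes, and in Arabidopsis they set the identity of floral organs, ovules and fruit tissues. STK, also called SEEDSTICK, belongs there to the AGAMOUS clade. It directs ovule identity together with SHP1 and SHP2, and it acts again in the seed coat, the funiculus and seed release. AGL14, also called XAANTAL2, is close to SOC1 and acts in flowering and in the root meristem, and in roots it has been tied to auxin transport. In tomato, other MADS-box factors (RIN of the SEP clade and TAGL1, a SHP relative) drive ripening.

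Fruit of the cultivar Golden were harvested before the climacteric in 3 harvests, called A, B and C. Ethylene-exposed fruit were held at 100 ppm for 12 h in a closed system and then vented with air for 1 h. They were frozen either then (T12h) or after 12 h more in air (T24h). Control fruit received no gas and were frozen at 12 h (C12h), at 24 h (C24h) or on arrival (C0h). Each of the 5 groups had 3 libraries, 1 per harvest. A library came from the pooled pulp of 5 or more fruit without peel or seeds, and the pool is the replicate. All values are read counts per gene scaled by the size factor of their library, called normalized counts here. The files hold no transcript lengths, so that a level of AGL14 was not compared with a level of STK as an abundance.

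Between 7999275 and 12542678 reads could be recovered in 13 of the 15 libraries, all but T12h B and T24h B. Control library C24h B stood apart: its median correlation over all tested genes was 0.946 with the treated libraries and 0.896 with the other control ones, whereas the other 8 control libraries were closer to controls. Fold changes of the pair that use C24h B are therefore given with and without it, and other results where stated. Treated library T24h B lay between, at 0.928 with the other treated libraries and 0.929 with the controls.

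AGL14 was low in unexposed pulp and several times higher in exposed pulp. At 12 h its level was 414, 227 and 640 normalized counts in T12h (harvests A, B and C), against 18.8, 84.9 and 35.7 normalized counts in C12h. The lowest exposed pool was thus above the highest unexposed pool. The fitted log2 fold change was 3.31 with an SE of 0.65, a 9.90-fold difference, and 26.3% of all 15270 tested genes had every T12h value above every C12h value. AGL14 stood at place 136 of these genes from the highest fold change down. Because the values had chosen the gene, nothing is read from that place.

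The size of the AGL14 difference was very uneven between harvests. Within harvest A the T12h level was 22.1 times the C12h level, within harvest C it was 17.9 times, and within harvest B it was 2.67 times. Harvest B had both the lowest T12h value and the highest C12h value. Without harvest B the log2 fold change was 4.26.

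At 24 h, AGL14 had 491, 137 and 290 normalized counts in T24h, against 48.2, 226 and 48.6 normalized counts in C24h. The groups overlapped, because C24h B lay above T24h B. The log2 fold change was 1.72 (SE 0.65), or 3.29-fold, and it was 2.45 without C24h B and 2.94 without the whole harvest B. Within harvests, T24h was 10.2 times C24h in A, 5.96 times in C and 0.605 times in B.

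Relative to fruit frozen on arrival, AGL14 was higher in every exposed library. C0h held 32.8, 36.7 and 25.7 normalized counts, the narrowest of the 5 groups at 31.7 ± 5.58 (SD, n = 3). The log2 fold change was 3.60 for T12h over C0h and 3.06 for T24h over C0h, both with an SE of 0.65. Within harvests T12h was 12.6, 6.18 and 24.9 times C0h in A, B and C. T24h was 14.96, 3.73 and 11.3 times C0h in the same order. The share of all tested genes with every T12h value above every C0h value was 25%, and it was 19.7% for T24h over C0h.

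AGL14 in fruit kept in air after removal of the gas (T24h) was not separated from AGL14 in fruit frozen soon after the exposure (T12h). The mean was 306 ± 178 normalized counts in T24h and 427 ± 207 in T12h (SD, n = 3 each), with a log2 fold change of -0.54 (SE 0.65). The 24 h level was 1.19 times the 12 h level in harvest A, 0.604 times in B and 0.453 times in C. Harvests B and C thus lay lower at 24 h and harvest A higher. All T24h values exceeded all T12h values in 15.4% of tested genes, and for neither AGL14 nor STK did they.

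STK was already well measured in unexposed pulp and was also higher in exposed pulp, by a smaller factor than AGL14. At 12 h it had 1086, 941 and 1181 normalized counts in T12h (A, B and C), against 373, 634 and 296 normalized counts in C12h. Every T12h pool lay above every C12h pool, as in 26.3% of all tested genes. The log2 fold change was 1.37 (SE 0.52), a 2.58-fold difference, at place 914 of the 15270 tested genes. As for AGL14, nothing is read from that place. Within harvests, T12h was 2.91, 1.49 and 3.98 times C12h, and harvest B again had the smallest ratio.

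At 24 h, STK had 1742, 1154 and 1096 normalized counts in T24h, against 465, 1260 and 246 normalized counts in C24h. The unexposed pool C24h B held more STK than T24h B and T24h C and more than each T12h pool. The log2 fold change was 1.31 (SE 0.52), or 2.48-fold, and 1.94 without C24h B. Within harvests T24h was 3.75, 0.916 and 4.45 times C24h in A, B and C. For the same pair of groups 5.72% of all tested genes had every T24h value above every C24h value, and neither AGL14 nor STK was among them.

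Fruit frozen on arrival had 596, 212 and 187 normalized counts of STK. Harvest A began well above the other harvests. The log2 fold change was 1.89 for T12h over C0h and 2.18 for T24h over C0h (SE 0.52 each). In both pairs of groups the exposed pools lay above all C0h pools, as in 25% and 19.7% of all tested genes. Within harvests T12h was 1.82, 4.45 and 6.32 times C0h, and T24h was 2.92, 5.45 and 5.87 times C0h. Here harvest A, not harvest B, had the smallest ratio. After removal of the gas T24h was 1.604, 1.23 and 0.928 times T12h, with a log2 fold change of 0.29 (SE 0.52). STK in harvest B was thus higher at 24 h, where AGL14 was lower.

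**Figure D1:**
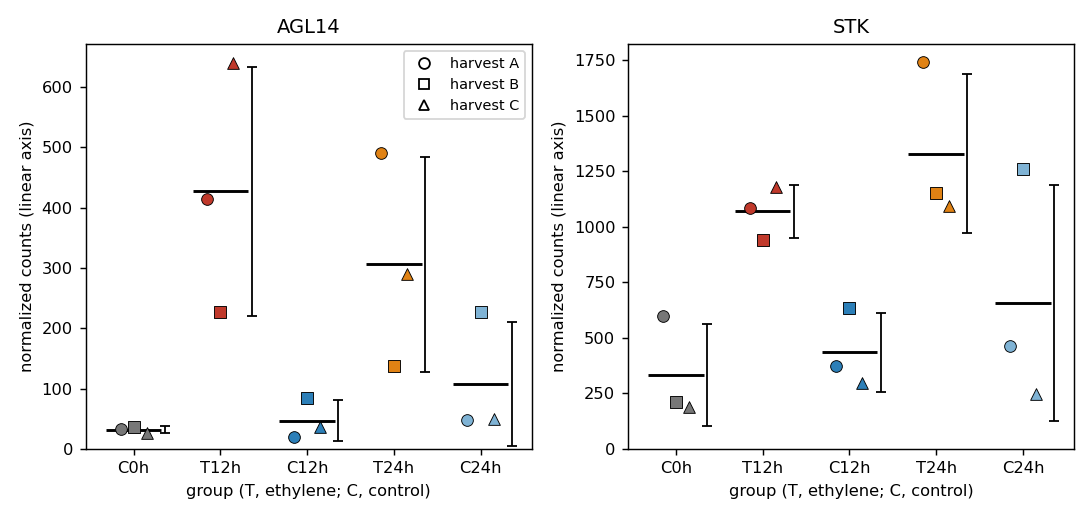
Normalized counts (linear axis) of AGL14 and STK in each library of the 5 groups, with the harvest as the symbol, the group mean as a horizontal line and 1 SD (n = 3) as the bar beside it. Exposed pools of AGL14 reached 137 to 640 and control pools other than C24h B stayed at or below 84.9, while C24h B lies among the exposed pools in both panels.

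In storage without ethylene the group means of both genes were higher at later times, within wide spreads. AGL14 averaged 31.7 ± 5.58 normalized counts in C0h, 46.5 ± 34.4 in C12h and 108 ± 103 in C24h (SD, n = 3 each). All C24h pools lay above all C0h pools, which 4.62% of tested genes also did, with a log2 fold change of 1.34 (SE 0.65) that was 0.61 without C24h B. STK averaged 332 ± 230, 434 ± 177 and 657 ± 533 normalized counts in C0h, C12h and C24h (SD, n = 3 each). Its groups overlapped at each step, where 9.73% of tested genes had every C12h value above every C0h value and 3.69% every C24h value above every C12h value. Its log2 fold change for C24h over C0h was 0.87 (SE 0.52), or 0.24 without C24h B and 0.019 without harvest B. These differences between control groups thus rested largely on harvest B.

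Over the 5 groups, mean AGL14 was in the order C0h, C12h, C24h, T24h and T12h from low to high, and each neighbouring pair in that order overlapped. Mean STK was in the order C0h, C12h, C24h, T12h and T24h, and again each neighbouring pair overlapped. The pair thus differed in which exposed time was highest. The difference between the ethylene effect at 24 h and that at 12 h was -1.59 on the log2 scale for AGL14 (SE 0.92) and -0.058 for STK (SE 0.74). Without C24h B these values were -0.86 and 0.57. The samples are bulk pulp, in which more cells of a type and more RNA per cell cannot be told apart.

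Both genes varied more between pools of a group than most genes did. After group means were removed, the SD between pools was 0.919 on the log2 scale for AGL14, above that of 92.8% of tested genes. For STK it was 0.737, above that of 86.4%, and the median gene had 0.361. AGL14 was counted with 372 reads in T12h A and 576 in T12h C, and thinly in control pulp, with 21 reads in C12h A and 36 each in C0h B and C0h C. STK had at least 208 reads in each of the 13 libraries with recovered reads.

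The ratio of the genes also differed between groups. AGL14 amounted to 38.2%, 24.1% and 54.2% of the STK value in T12h and to 5.04%, 13.4% and 12.1% in C12h (A, B and C). This ratio is not corrected for transcript length and is of use only between libraries, where T12h lay above C12h in each harvest. At 24 h it was 28.2%, 11.9% and 26.4% in T24h and 10.4%, 17.96% and 19.7% in C24h. In harvest B the ratio was lower in T24h than in C24h. It was 5.51%, 17.3% and 13.7% in C0h.

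Across libraries AGL14 and STK were high in broadly the same pools. Pearson's r of the log2 values was 0.873 (Spearman's rho 0.818) over the 15 libraries, and the points share the groups, the harvests and library depth. Without C24h B r was 0.870 and rho 0.837 over 14 libraries. Within the 9 control libraries r was 0.747 and rho 0.517, and within the 6 treated libraries r was 0.429 and rho 0.543. The control values include C24h B, the highest control pool of both genes, and were not computed without it. Once group means were removed r was 0.673, also with C24h B included. STK came only at place 573 among 15269 genes in likeness to AGL14, and AGL14 at place 570 in likeness to STK.

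**Figure D2:**
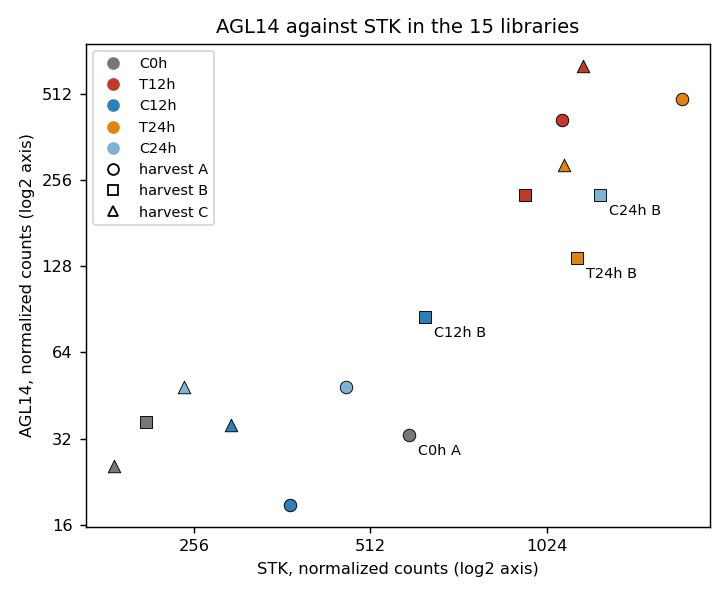
AGL14 against STK in normalized counts (log2 axes), 1 point per library, with colour for the group and symbol for the harvest. Exposed pools lie at the upper right with control pool C24h B among them (226 for AGL14 and 1260 for STK), and C0h A shows high STK (596) at low AGL14 (32.8).

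The genes with the pattern most like AGL14 over the 15 libraries were LOC110808763 (r = 0.980), OPT1 (0.971), LOC110817527 (0.965), PEX19-1 (0.964) and LOC110810425 (0.964), and SULTR3;4 (0.964) was the next with a symbol. OPT1 is named after an oligopeptide transporter, PEX19-1 after a peroxisome biogenesis factor and SULTR3;4 after a sulfate transporter family member. OPT1 had 1138, 774 and 1349 normalized counts in T12h, against 20.6, 106 and 17.9 normalized counts in C12h. Like AGL14 it was high in C24h B, with 1129 normalized counts, and low in T24h B, with 191. In all, 349 genes had an r of at least 0.9 with AGL14, and 233 had -0.9 or less.

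The genes most like STK were LOC110817127 (r = 0.983), LOC110812584 (0.969), LOC110825971 (0.968), LOC110816058 (0.968) and FACT (0.968), and the next with symbols were BGAL10 (0.966) and ACLB-1 (0.958). BGAL10 is named after a beta-galactosidase of the cell wall and ACLB-1 after a subunit of ATP-citrate lyase. BGAL10 had 1670, 1345 and 2356 normalized counts in T12h, against 726, 682 and 527 normalized counts in C12h, and like STK it was high in C0h A, with 1073. In all, 308 genes had an r of at least 0.9 with STK, and 203 had -0.9 or less. These likenesses are a description over 15 libraries that share 5 groups. They dropped to between 0.842 and 0.933 for the AGL14 genes, and to between 0.916 and 0.963 for the STK genes, when group means were removed. Without C24h B they were between 0.962 and 0.979 for the AGL14 genes and between 0.956 and 0.982 for the STK genes.

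**Figure D3:**
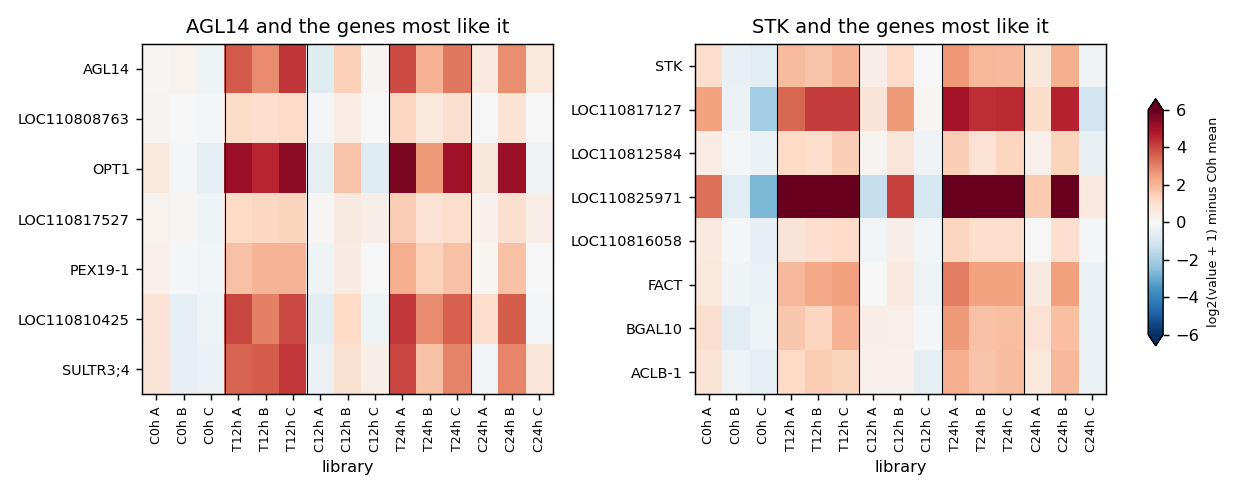
Log2(value + 1) minus the mean of the C0h libraries, as colour, in the 15 libraries (columns, by group and harvest) for AGL14 and STK (top rows) and the genes most like each. The scale ends at 6, and LOC110825971 lies beyond it in the exposed libraries and in C24h B. The column of C24h B resembles the exposed columns in both panels.

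Other MADS-box genes were read beside the pair. They were found by symbol only, so that MADS-box genes without a symbol are missing and these genes do not stand for the whole family. The table held 12 others with a MADS-box symbol, of which 8 passed the filter of a mean of at least 5 normalized counts. AGL15 was at 0 in all libraries, and AGL6, AGL12 and PI stayed at or below 3.02 normalized counts in every library. In T12h against C12h, where limma called 24.1% of all genes at an adjusted p of at most 0.05, 1 of the 8 was called, in the higher direction that 11.7% of all genes took. Their median log2 fold change was -0.20, against 3.31 and 1.37 for AGL14 and STK. As the pair was chosen with its values known, nothing is read from that contrast.

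The gene called was SHP1 (LOC110815052), named after SHATTERPROOF1, which patterns the valve margin of the Arabidopsis fruit and shares ovule identity with STK. SHP1 had 4454, 5939 and 5385 normalized counts in T12h, against 3205, 3532 and 2896 normalized counts in C12h. Every T12h value lay above every C12h value, as in 26.3% of all tested genes, and the log2 fold change was 0.71 (SE 0.22, limma adjusted p = 0.0344). The limma call was lost without C12h A (adjusted p = 0.0931), C12h C (0.124), T12h B (0.111) or T12h C (0.0969), and also without harvest A (0.150), B (0.0626) or C (0.213). Of all genes, limma called 1.96% without harvest A and 0% without harvest C, so that no gene could stay called in the latter. Over the alternatives the adjusted p ran between 0.00211 (limma with library weights) and 0.242 (limma after quantile normalization), with 0.141 in edgeR and 0.0982 in DESeq2 on 13 libraries. The estimate of those weights had stopped short of its convergence tolerance. The direction stayed the same throughout.

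At 24 h limma called 0% of all genes between T24h and C24h, although 2843 had an unadjusted p under 0.05. DESeq2 called 121 of all genes and edgeR none, on 13 libraries. None of the 8 MADS-box genes was called by limma, edgeR or DESeq2, and 3 had an unadjusted p under 0.05 in limma. Without C24h B limma called 23.6% of all genes and 3 of the 8. SHP1 was then higher (log2 fold change 0.69, limma adjusted p = 0.0185), while SEP2 (-1.04, 0.00656) and AGL33 (-1.21, 0.0336) were lower. SEP2 is named after a SEPALLATA protein, the partner that AGAMOUS-clade factors need in Arabidopsis flowers. SEP2 had 260, 433 and 383 normalized counts in T24h, against 622, 320 and 843 normalized counts in C24h, and the single low control value was that of C24h B.

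Against fruit frozen on arrival, limma called 24% of all genes in T12h and 15.6% in T24h, and none of the 8 in either. On 13 libraries edgeR and DESeq2 also called none of the 8. Unadjusted limma p-values under 0.05 were reached by 1 and by 4 of the 8, and by 6028 and 5275 of all 15270 genes. AGL24 and SHP1 came closest in T24h, with log2 fold changes of -1.34 (limma adjusted p = 0.0524) and 0.62 (0.0704). AGL24 was thinly counted, with 4.61 normalized counts in T24h C. Without C24h B, which lies outside these groups but widens the shared spread, SHP1 was called in both (limma adjusted p = 0.0164 and 0.0167) and AGL24 in T24h (0.0381). Leaving out C24h C, likewise outside these groups, had SHP1 called in both (0.0372 and 0.0405 in limma) and AGL24 (0.0485) and AGL33 (0.0450) in T24h, and leaving out T12h C had AGL24 called in T24h (0.0459). Between T24h and T12h limma called 5.51% of all genes and none of the 8. An unadjusted p under 0.05 was reached by 3 of the 8 and by 3646 of all 15270 genes. SEP2 was called there without C24h B (log2 fold change -0.85, limma adjusted p = 0.0192).

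The remaining MADS-box genes were not called in T12h against C12h, which does not show that they were unchanged. SEP3 had 1569, 1450 and 1211 normalized counts in T12h, against 1579, 1577 and 1965 normalized counts in C12h. SEP4 had 901, 1033 and 625, against 881, 808 and 902 in the same groups. AGL20, the symbol of SOC1 and thus of the clade of AGL14, had 43.5, 22.9 and 22.2 normalized counts in T12h, against 31.3, 46.6 and 50.3 normalized counts in C12h. Its log2 fold change was -0.56 with a limma adjusted p of 0.284, and within harvests T12h was 1.39, 0.491 and 0.441 times C12h in A, B and C. AGL24 had 0.492, 0.408 and 0.858 times its C12h level (log2 fold change -0.81, limma adjusted p = 0.182). SVP, named after a repressor of flowering, differed by -0.12 (limma adjusted p = 0.796). In the interaction of ethylene and time, limma called 0 of the 8 and 0% of all genes, with 1938 of all genes and none of the 8 at an unadjusted p under 0.05. EdgeR also called none of all genes there and DESeq2 called 13.

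**Figure D4:**
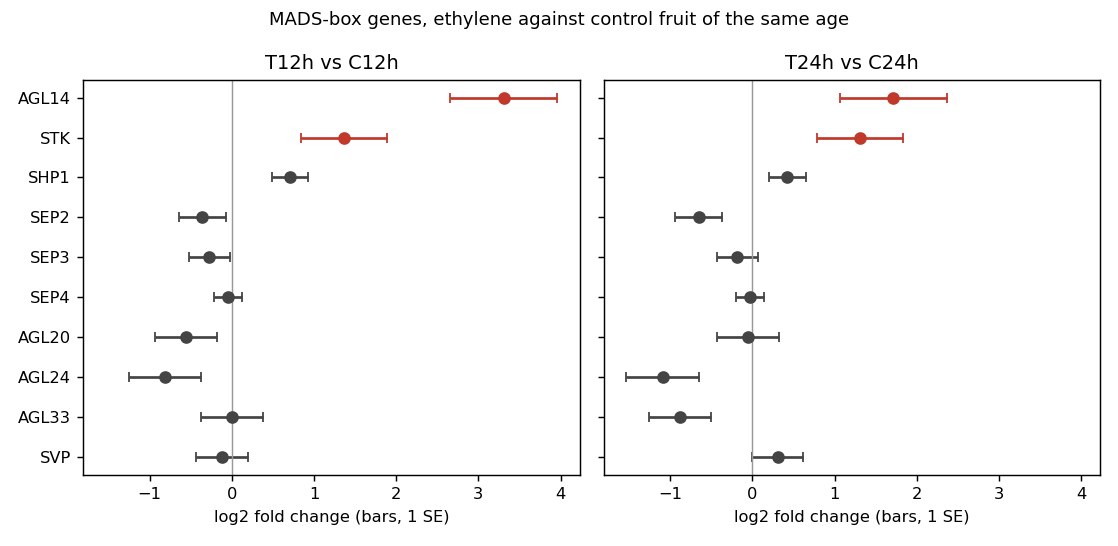
Log2 fold change with 1 SE of AGL14, STK (red) and the 8 other tested MADS-box genes (grey) between exposed and control pulp at 12 h and at 24 h. AGL14 (3.31 and 1.72) and STK (1.37 and 1.31) lie furthest to the right at both times, and SHP1 follows at 0.71 and 0.43. The pair was chosen with these values known, so that its place is a description only.

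Regulators of carpel and ovule development form the setting in which STK is best known. The table held 23 such genes, 10 of which were tested. In T12h against C12h limma called 6 of them lower and none higher, where 12.3% of all genes were called lower. The median log2 fold change of the 10 was -0.95. SEU and LUG are named after the SEUSS and LEUNIG corepressors of AGAMOUS. SEU had 497, 375 and 516 normalized counts in T12h, against 747, 653 and 679 normalized counts in C12h, a log2 fold change of -0.59 (limma adjusted p = 0.0242). LUG differed by -0.39 (limma adjusted p = 0.0483).

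REV, named after a homeodomain leucine zipper factor of organ polarity, had a log2 fold change of -1.28 (limma adjusted p = 0.0339), and NTT, a zinc finger factor of the transmitting tract, -1.25 (0.0440). ARF6, an auxin response factor, had 648, 617 and 488 normalized counts in T12h, against 1203, 924 and 1136 normalized counts in C12h. Its log2 fold change was -0.90 (limma adjusted p = 0.0419). ALC, a basic helix-loop-helix factor of fruit opening, was thinly counted, with 2 reads or fewer in T12h A and T12h C, and had 2.23, 0.994 and 0 normalized counts in T12h, against 14.3, 8.22 and 4.87 normalized counts in C12h (log2 fold change -2.34, limma adjusted p = 0.0177). These are opposite in direction to the difference seen for STK.

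BEL1, a homeodomain factor that works with AGAMOUS-clade proteins in the Arabidopsis ovule, was not called at 12 h (log2 fold change -1.14, limma adjusted p = 0.0863). Against C0h it was lower in T12h (-1.502, limma adjusted p = 0.0347) and in T24h (-2.36, 0.0119). BEL1 had 19.4, 26.2 and 18.5 normalized counts in T24h, against 62.6, 130 and 175 normalized counts in C0h. In all, limma called 6 of the 10 lower in T12h against C0h, where 12.2% of all genes were lower. In T24h against C0h it called 2 lower (ARF6 and BEL1), where 7.52% of all genes were. The count of 6 was 1 without C0h B or C0h C and 2 without T12h B or T12h C, and 4, 2 and 0 without harvests A, B and C. The share of all genes called in T12h against C0h also fell, to 9.69% without C0h B and 5.32% without C0h C. Without harvests A, B and C it was 13.3%, 10.9% and 0%. In T24h against C0h the limma call of BEL1 was lost without C0h C or T24h A and without harvest A or C (adjusted p between 0.0544 and 0.126). That of ARF6 was lost without any 1 of the C0h pools, T24h A or T24h C, and without harvest A or C (adjusted p between 0.0607 and 0.265). Without C0h C, harvest A or harvest C limma called 0% of all genes in T24h against C0h, and without T24h A 1.23%. Those losses thus say little about BEL1 or ARF6.

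Between T24h and C24h limma called 0 of the 10, with 2 at an unadjusted p under 0.05, as were 2843 of all 15270 genes. DESeq2 called 1 (ARF6). Limma without C24h B called 2 lower (ARF6 and BEL1), where it called 23.6% of all genes in either direction. The count of 6 in T12h against C12h was sensitive to single libraries. It was 0 without C12h A, 4 without C12h B, 1 without C12h C, 2 without T12h A, 1 without T12h B and 1 without T12h C, with 3 when any 1 of the C0h pools was left out. Without harvest A or harvest C it was 0, and without harvest B it was 1. The adjusted p of the calls so lost ran between 0.0501 (LUG and REV) and 0.289 (LUG). The share of all genes called moved likewise, to 5.51% without C12h A, 5.74% without C12h C and 7.55% without T12h C. It was 1.96% without harvest A, 20.2% without harvest B and 0% without harvest C. No gene at all could thus stay called without harvest C. With the harvest as a block 4 of the 10 were called. On 13 libraries limma and edgeR called 0 of the 10 in this comparison and DESeq2 called 2 (ARF6 and REV). In limma on all libraries 8 had an unadjusted p under 0.05, as did 6093 of all 15270 genes.

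Between T24h and T12h, which shares the T12h libraries with the comparisons above, the direction of this list was the opposite. Limma called 2 of the 10 higher and none lower, where 3.21% of all genes were called higher, and the median log2 fold change was 0.67. SEU had 786, 864 and 657 normalized counts in T24h, against the T12h values given above (log2 fold change 0.74, limma adjusted p = 0.0281). INO, named after a YABBY factor of the outer ovule integument in Arabidopsis, was thinly counted in T12h. It had 20.6, 11.1 and 17.3 normalized counts in T24h, against 6.68, 1.99 and 3.33 normalized counts in T12h (log2 fold change 1.86, limma adjusted p = 0.0370). The limma call of SEU was lost without T12h B, T12h C, T24h B or any 1 harvest (adjusted p between 0.0625 and 0.328). That of INO was lost without T12h B, T12h C, any 1 T24h pool, C0h B, C12h C or any 1 harvest (adjusted p between 0.0534 and 0.240) and with the harvest as a block (0.0570). Of all genes, limma called 0.452% without T12h B, 0.779% without T12h C and 0.236% without T24h B. Without harvests A, B and C it called 2.14%, 0.00655% and 0%, so that hardly any call could stay without B or C.

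Auxin transport genes were examined because AGL14 acts on them in Arabidopsis roots. The list used here had 9 genes in the table and 7 were tested. In T12h against C12h limma called 2 of the 7 lower and none higher, against 12.3% of all genes called lower and 11.7% higher. The median log2 fold change of the 7 was 0.092.

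ABCB19, an auxin transporter of the ABC family, had 11.1, 19.9 and 9.996 normalized counts in T12h, against 91.2, 75.8 and 82.8 normalized counts in C12h, a log2 fold change of -2.58 (SE 0.67, limma adjusted p = 0.0175). D6PKL2, named after a kinase that activates auxin exporters, differed by -0.53 (limma adjusted p = 0.0414). PIN4, an auxin exporter, had 14.5, 25.8 and 31.1 normalized counts in T12h, against 13.4, 17.3 and 8.12 normalized counts in C12h, and was not called (log2 fold change 0.82, limma adjusted p = 0.430).

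The limma calls of ABCB19 and D6PKL2 depended on single libraries. Both were lost without C12h A, C12h C, T12h C, harvest A or harvest C (the adjusted p of ABCB19 then between 0.0630 and 0.172). Without harvests A and C limma called 1.96% and 0% of all genes in T12h against C12h. D6PKL2 was lost without any 1 of the 6 T12h and C12h libraries, C0h B, C0h C or C24h A, and without harvest B (adjusted p between 0.0519 and 0.234). Limma called GN, an endosomal trafficking factor that recycles auxin exporters, higher in T12h against C0h (log2 fold change 0.64, adjusted p = 0.0482). Leaving out any 1 library other than C0h A, C24h B and C24h C ended that call (adjusted p between 0.0536 and 0.383, harvests included). ABCB1 was lower in T24h against C0h (log2 fold change -1.33, limma adjusted p = 0.0215). That limma call was lost without C0h B (0.0525), C0h C (0.0901), T24h A (0.0593) or T24h C (0.0608), and without harvest A (0.143) or C (0.226). In that comparison limma called 0% of all genes without C0h C, harvest A or harvest C, so that no gene could stay called. It called 3.29% without C0h B, 1.23% without T24h A and 10.5% without T24h C. Limma and edgeR called 0 genes of all in T24h against C24h. An unadjusted p under 0.05 in limma was reached there by 2 of the 7 auxin transport genes and by 2843 of all 15270 genes. Without C24h B limma called 3 of the 7 lower there (ABCB19, BIG and D6PKL2) and 1 higher (TWD1), in a fit that called 23.6% of all genes in either direction. With the harvest as a block D6PKL2 was no longer called at 12 h (adjusted p = 0.0583).

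**Figure D5:**
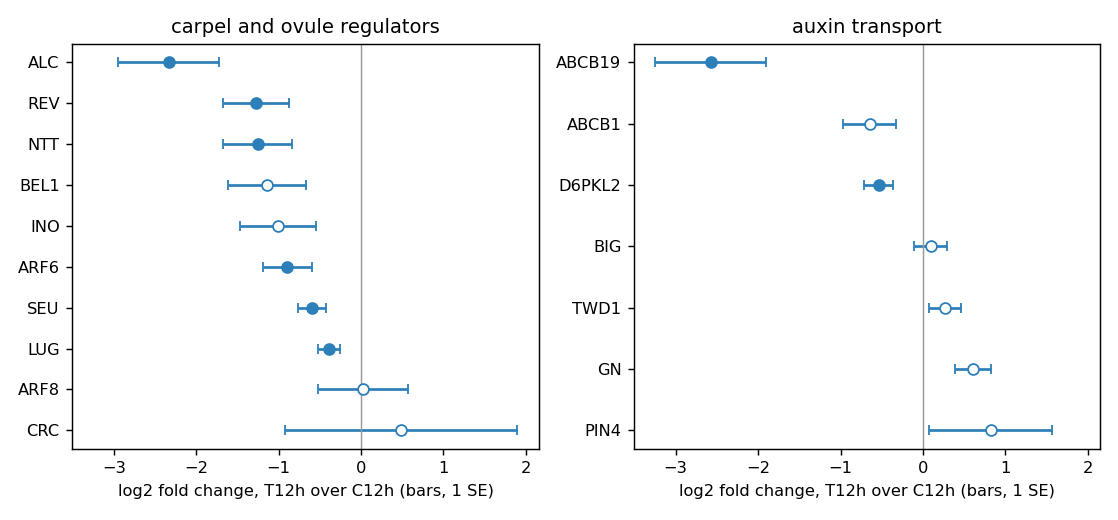
Log2 fold change of T12h over C12h with 1 SE for the 10 tested carpel and ovule regulators and the 7 tested auxin transport genes, with filled points for a limma adjusted p of at most 0.05. The 6 and 2 filled points all lie below 0, from -0.39 (LUG) to -2.58 (ABCB19).

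Markers of other tissues were read because STK is a gene of seeds and ovules and because the pulp had been freed of seeds and peel. Among 10 seed and seed coat genes with a value, ABI3 and ABI4 were at 0 in all 15 libraries and EM1 reached at most 0.868 normalized counts. The summed level of the 10 was 291 to 432 normalized counts in T12h and 201 to 240 in C12h. It was 236 to 269 in T24h, 200 to 302 in C24h and 237 to 325 in C0h. Of the 10, 3 were tested, and TTG2, a WRKY factor of seed coat and leaf hairs, was called higher in T12h against C12h, as 11.7% of all genes were (log2 fold change 1.05, limma adjusted p = 0.0186). TTG2 had 251 ± 33.6 normalized counts in T12h and 121 ± 19.4 in C12h (SD, n = 3 each). It thus made up a large part of the summed level of the 10 in both groups, so that the sums do not describe seed genes in general. The limma call was lost without C12h A, C12h C, T12h C, harvest A or harvest C (adjusted p between 0.0528 and 0.150). Without these harvests limma called 1.96% and 0% of all genes.

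Peel and leaf markers had overlapping sums in T12h and C12h. The table held 18 and 14 were tested, and in T12h against C12h 1 was called higher (LACS2, a cutin synthesis enzyme) and 2 lower (the photosystem genes LHCA1 and PSAN), against 11.7% of all genes called higher and 12.3% lower, so that the count is near the share over all genes. Each of these limma calls was lost without C12h A, C12h C, T12h B or T12h C, that of LACS2 also without C0h B and that of LHCA1 also without C12h B, T12h A, C0h B or C24h A (adjusted p between 0.0506 and 0.317, harvests included). Their summed level was 10414 to 12680 normalized counts in T12h and 9977 to 10575 in C12h. Of 12 vascular genes 3 were tested, and 1 was called higher, where 11.7% of all genes were. It was IRX3, a cellulose synthase of secondary walls, with 5977, 5846 and 8696 normalized counts in T12h, against 45.6, 656 and 20.3 normalized counts in C12h. The summed level of that list, mostly IRX3 in T12h, was 5917 to 8778 normalized counts in T12h and 64.1 to 699 in C12h. Like the pair it was high in C24h B, with 4228 normalized counts. The limma call of IRX3 was lost without C12h A, C12h C, T12h C, harvest A or harvest C (adjusted p between 0.0556 and 0.161). XCP1, a protease of the xylem, was called higher in T24h against C0h (log2 fold change 3.27, limma adjusted p = 0.0229). That call was lost without C0h B, C0h C, any 1 T24h pool or any 1 harvest (adjusted p between 0.0504 and 0.152). Without C0h C, harvest A or harvest C limma called 0% of all genes there. The part of these markers in the levels of AGL14 and STK was not tested.

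The genes next to the pair in the reference order do not overlap it. Beside AGL14, LOC110817594 had 1230, 1158 and 1277 normalized counts in T12h, against 696, 773 and 653 normalized counts in C12h (log2 fold change 0.79, limma adjusted p = 0.0346). LOC110817458, on the other side, differed by 0.94 and was not called (limma adjusted p = 0.0515). Beside STK, LOC110825605 had 34.5, 36.8 and 18.9 normalized counts in T12h, against 1.79, 6.39 and 0.812 normalized counts in C12h (3.16, limma adjusted p = 0.0218). It was thinly counted in C12h, and its log2 fold change ranged between 2.15 and 3.73 over the alternatives. LOC110822342, on the other side, was lower in T12h (-0.88, limma adjusted p = 0.0411), so that the neighbours of STK went opposite ways. Of all genes, limma called 24.1% in T12h against C12h.

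The limma calls of these 3 neighbours were lost without C12h A, C12h C, T12h A, T12h B or T12h C, and that of LOC110822342 also without C12h B, with adjusted p between 0.0531 and 0.135. Without harvest A or harvest C all 3 were lost (adjusted p between 0.0961 and 0.270), in fits that called 1.96% and 0% of all genes. On 13 libraries DESeq2 called LOC110825605 (adjusted p = 0.0302) and LOC110822342 (0.0381), and edgeR called none of the 3. The neighbours were chosen by position after the levels of AGL14 and STK were known.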

How the data were processed

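Reads of stranded mRNA libraries were cleaned by the authors (SeqyClean 1.10.09, with quality reports from FastQC 0.11.8) and mapped to the Papaya1.0 genome by STAR 2.6.0a. Unique alignments were kept and counts were normalized in DESeq2 1.20.1. The counting tool and its strand setting are not given in the sources used here, and near-identical genes could lose reads. The deposited signal is the count of a gene as scaled by the authors with the size factor of the library. The members and gene lists were chosen with earlier results of these data known.

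Log2(value + 1) of all 15 libraries was fitted in 1 model of 5 groups with limma 3.58.1 in R 4.3.3, with a variance trend, for 15270 genes whose mean was 5 or more. P-values were adjusted by Benjamini and Hochberg over these genes and called at 0.05. Leaving out libraries or harvests also moved the share of all genes called. Without harvest C limma called 0% of all genes in each comparison, and without harvest A 1.96% in T12h against C12h. A call lost in such a fit therefore says little about that gene. Library pairs of a group differed by more than counting noise (chi-square per degree of freedom 14.97 to 146).

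The labels tie the 5 libraries of a harvest together, 1 from each group. After group means were removed, libraries of 1 harvest had a median correlation of -0.0351 (30 pairs) and those of different harvests -0.0187 (60 pairs), so that the harvest entered as a block only as an alternative. Whole reads were taken as recovered in 13 libraries, and edgeR 4.0.16 and DESeq2 1.42.0 were run on those. The treated pools of harvest B, T12h B and T24h B, were left out. Their smallest values above 0 lay close to 1 (0.994 and 1.01 normalized counts). Control pools of harvest B, with C24h B, stayed in, so that these runs did not use the same design.

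Other MADS-box genes and lists were found by gene symbol, since no protein sequences were used here. One gene of the auxin transport list is not reported here. The planned search for relatives by protein identity was not run. Symbols come from the RefSeq table of another papaya assembly, which matched 17406 of 19817 LOC identifiers, and only names and gene order were taken from it. The rule for named genes took MADS-box genes called, the 5 most similar genes by Pearson's r and up to 3 with a symbol, and called list genes. SEP2, SEP3, SEP4, AGL20, AGL24, AGL33, SVP, PIN4, BIG, TWD1, the values of OPT1 and BGAL10 and the neighbours were named after their values were seen. On simulated counts for T12h against C12h, limma called 13.4% of 67 genes changed by log2 1, 83.3% of 66 changed by 2 and 100% of 66 changed by 3, with 7 of 15060 unchanged genes. The simulated counts had the same dispersion for all genes, few changed genes and no outlying library. These rates therefore do not carry over to the measured libraries.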

Additional observations from a re-analysis of the deposited data

How the results depend on the processing

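Over 30 alternatives each (scaling, quantile normalization, a pseudocount of 0.5 or of 5, a filter at a mean of 50 or none at all, a harvest block, library weights, only the compared groups, each library or harvest left out and, chosen after seeing the data, limma, edgeR and DESeq2 on 13 libraries), 537 of 540 log2 fold changes of AGL14 and STK stayed within 1 SD between libraries of the value given. Many of these values could not differ from the value given. Another filter, a fit of only the compared groups, the harvest block or a library left out of another group does not alter a difference of group means. The SDs were also wide, 0.919 for AGL14 and 0.737 for STK, so that the count is no measure of robustness. With libraries or harvests left out, AGL14 ranged between 2.77 and 4.26 for T12h over C12h and between 0.91 and 2.94 for T24h over C24h, and STK between 0.019 and 1.48 for C24h over C0h. With harvest as a replicate block the paired log2 fold changes of T12h over C12h were 3.31 for AGL14 and 1.37 for STK. They equal those without the block by design, since each group held 1 library per harvest.

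The number of other MADS-box genes called by limma moved more. In T12h against C12h it was 1, against 0 after quantile normalization, in limma on 13 libraries, in edgeR and in DESeq2, 2 with library weights, and 0 to 1 with libraries left out. In T24h against C24h it was 0, against 3 with weights and 0 to 3 with libraries left out. In T12h against C0h it was 0, against 1 with weights, 1 with only those groups fitted and 0 to 1 with libraries left out. In T24h against C0h it was 0, against 1 with TMM scaling, 3 with weights and 0 to 3 with libraries left out. In T24h against T12h it was 0, against 1 with weights and 0 to 1 with libraries left out, and in C24h against C12h it was 0, against 1 with weights. The cause was not tested. With weights limma called 44.3% of all genes in T12h against C12h, against 24.1% without them. The estimate of the weights stopped before it reached its convergence tolerance, so that all values with weights are uncertain. With the block, ARF6 (adjusted p = 0.0609), D6PKL2 (0.0583), LUG (0.0649) and LHCA1 (0.0505) were no longer called in T12h against C12h, nor were GN (0.0612), ARF8 (0.0552) and CER10 (0.0672) in T12h against C0h, nor INO (0.0570) in T24h against T12h. No other call named here was lost with the block.

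Pools of 3 per group and 21 to 93 reads of AGL14 in most control libraries limit the precision of its ratios. Counts on 13 libraries leave T12h and T24h with 2 pools each, those of harvests A and C, so that tool and libraries change together.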
